A study of Mus musculus with 6 samples.

Results

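Platelet-derived growth factors (PDGFs) and their receptors were followed in RNA-seq counts of mammary tumor cells from MMTV-PyVT mice. The set comprised the ligand genes Pdgfa, Pdgfb and Pdgfc and the receptor genes Pdgfra and Pdgfrb, taken by gene symbol from the count table, and all 5 were present among its 10995 rows. The libraries fell into 3 labelled Nr4a1-/- (knockout, KO) and 3 labelled wild type (WT), all of strain FVB/NJ, all carrying the PyVT transgene, and stated to be matched for age. In this line the mammary tumor virus promoter drives the polyoma middle T oncogene in mammary epithelium, which limits the model to tumors of that origin. Ages, any sorting or culture of the tumor cells, and the number of animals behind each group are not stated in the labels, so a p-value here reflects library-to-library spread that may be technical.

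PDGFs are secreted dimers that act on 2 receptor tyrosine kinases. PDGF-A and PDGF-C bind the alpha receptor and PDGF-B binds both. Binding pairs the receptors, which then phosphorylate each other and recruit kinases, adapters and phosphatases. In mammary tissue and its tumors the ligands are known from epithelial and endothelial cells, and the receptors from fibroblasts and from the pericytes and smooth muscle of vessels.

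Library totals lay between 19569173 and 24188875 counts. WT replicate 1 stood apart from the other libraries, at 51.3 on a first principal component that carried 60.1% of the variance of log2 CPM (counts scaled to a common library size), against -28.8 to 2.22 for the others. The targeted gene did not check the labels. Nr4a1 had 25.1, 35.5 and 37.6 CPM in KO replicates 1, 2 and 3, against 34.5, 18.6 and 16.8 CPM in WT replicates 1, 2 and 3. In the edgeR fit its log2 fold change was 0.49 (SE 0.32, adjusted p = 0.59), 0.88 without WT replicate 1 and 0.31 without WT replicate 3. Whole-gene counts do not tell a transcript with a disrupted exon from an intact one, so all directions below are between libraries as labelled. Epithelial markers were present in every library, with summed levels of 13 listed genes of 4361 to 5395 CPM in KO libraries and 6783 to 7786 CPM in WT libraries.

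Promoters of member genes were examined because both receptor genes stood on the same side of the comparison while the ligand genes divided. The windows run from 250 bases before the RefSeq start site to 50 after it (GRCm38.p6), and are shown for 3 of the members. Pdgfb had no entry among the promoters. Pdgfrb was left out of the search by choice, so the windows of the receptor genes could not be compared. Capitals mark matches to motifs searched on both strands. These were the NBRE (AAAGGTCA), which NR4A receptors bind, the TATA box (TATAAA), the GC box (GGGCGG), the CCAAT box (CCAAT), the AP-1 site (TGACTCA) and the CArG box of serum response factor. Overlapping matches were allowed, and none overlapped another motif here.
Pdgfra, chr5:75152001-75152300, plus strand: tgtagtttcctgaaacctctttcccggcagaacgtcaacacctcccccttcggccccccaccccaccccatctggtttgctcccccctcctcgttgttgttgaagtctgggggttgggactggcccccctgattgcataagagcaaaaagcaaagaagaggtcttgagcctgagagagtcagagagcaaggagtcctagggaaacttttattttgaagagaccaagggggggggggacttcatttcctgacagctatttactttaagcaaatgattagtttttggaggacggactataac
Pdgfc, chr3:81036166-81036465, plus strand: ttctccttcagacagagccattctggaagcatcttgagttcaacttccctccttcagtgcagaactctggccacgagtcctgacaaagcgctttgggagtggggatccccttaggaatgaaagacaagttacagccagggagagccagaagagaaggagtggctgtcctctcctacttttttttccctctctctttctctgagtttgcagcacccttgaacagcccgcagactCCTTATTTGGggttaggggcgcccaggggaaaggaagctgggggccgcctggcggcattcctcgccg
Pdgfa, chr5:138994895-138995194, minus strand: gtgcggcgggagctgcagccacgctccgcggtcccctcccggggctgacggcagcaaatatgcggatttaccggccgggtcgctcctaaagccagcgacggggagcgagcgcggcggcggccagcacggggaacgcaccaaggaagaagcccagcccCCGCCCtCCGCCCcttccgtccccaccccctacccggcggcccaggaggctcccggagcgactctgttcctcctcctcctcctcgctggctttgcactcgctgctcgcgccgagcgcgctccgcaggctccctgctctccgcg

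The Pdgfra window held 0 of these motifs, was 51.0% G and C, and had 5 CpG pairs. The Pdgfc window held 1 CArG box, whose first base lay 17 bases before the start site, and was 55.0% G and C. The Pdgfa window held 2 GC boxes on the minus strand of the printed sequence, with first bases 93 and 86 bases before the start, and was 73.3% G and C with 37 CpG pairs. A further annotated Pdgfa start, chr5:138994232-138994531, held 1 GC box. Among 32851 promoters of the same length, an NBRE was found in 1.51%, a CArG box in 1.63%, a TATA box in 13.6%, an AP-1 site in 5.20%, a CCAAT box in 37.4% and a GC box in 35.7%. Among the 10973 promoters of genes in the count table, the shares were 0.875% for the NBRE, 1.39% for the CArG box, 6.87% for the TATA box, 3.75% for the AP-1 site, 37.2% for the CCAAT box and 64.7% for the GC box. The median promoter was 52.7% G and C. A match describes letters in a window and is not evidence of binding.

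The comparison asked how the PDGF axis differed between tumor cells labelled KO and those labelled WT. Receptor transcripts stood higher with the KO label, Pdgfrb by 2.26 times and Pdgfra by 1.72 times in the fit. Pdgfb, the most abundant ligand transcript, stood at 0.649 of its WT level. For Pdgfa and Pdgfc the difference between the means was smaller than the larger of the group SDs. None of these differences passed the edgeR quasi-likelihood test after Benjamini-Hochberg adjustment over all genes, in which 0 of 10995 genes (0%) were called, 0.273 being the lowest adjusted p. Before adjustment, at p under 0.05, both receptors and 0 of the 3 ligands were higher with the KO label, where 3.7% of all genes were, and 0 members were lower, where 4.17% of all genes were. This count rested on single libraries. The unadjusted p of Pdgfrb was 0.078 without KO replicate 2, 0.054 without WT replicate 1 and 0.077 without WT replicate 3. That of Pdgfra was 0.12 without KO replicate 2, 0.097 without KO replicate 3, 0.095 without WT replicate 1 and 0.12 without WT replicate 3. DESeq2 called 0 of the 5 members, while it called 0.583% of all genes higher.

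**Figure D1:**
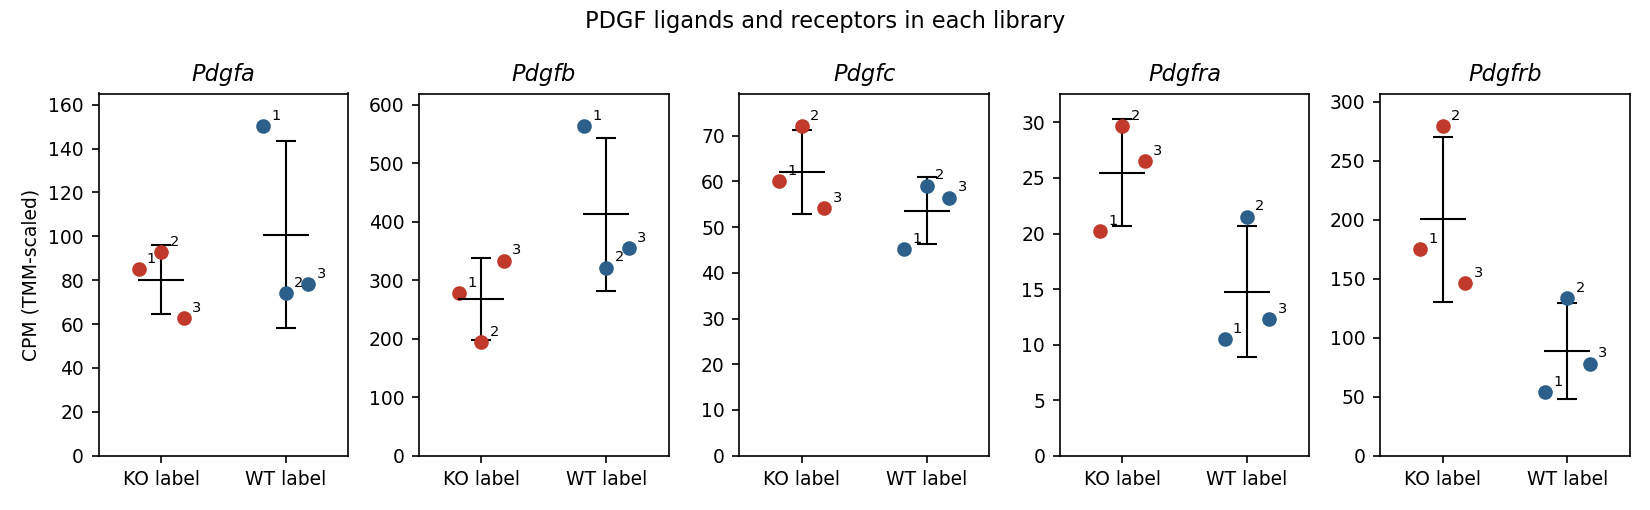
Level of each member in each library, in CPM scaled by TMM (linear axis from 0); points are libraries with their replicate number, bars the group mean and SD (n = 3 each). For Pdgfrb all KO points lie above all WT points, and for Pdgfa and Pdgfb WT replicate 1 is the highest point.

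The beta receptor gene Pdgfrb (ENSMUSG00000024620.11, chromosome 18, 61045150 to 61085061, plus strand, GRCm38) encodes the PDGF-B receptor of pericytes and fibroblasts. It had 175, 279 and 147 CPM in KO replicates 1, 2 and 3, against 54.1, 134 and 78.0 CPM in WT replicates 1, 2 and 3. All KO libraries were above all WT libraries, although KO replicate 3 exceeded WT replicate 2 by little. The same held for 8.39% of all genes, and for 1 of the 5 members. The group means were 200 CPM ± 69.7 in KO and 88.6 CPM ± 40.8 in WT (SD, n = 3 each). The log2 fold change was 1.18 (SE 0.40, 95% interval of the fit 0.20 to 2.15). The edgeR adjusted p was 0.57 and that of DESeq2 0.13. An exact permutation test of log2 CPM, two-sided, gave p = 0.1, the smallest that 3 libraries against 3 allow. With 1 library left out, the log2 fold change lay between 0.86 (KO replicate 2) and 1.60 (WT replicate 2). No annotated gene overlaps Pdgfrb. Csf1r, a macrophage receptor gene that begins 15.54 kb downstream, had a log2 fold change of 0.41 (unadjusted p = 0.10).

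The alpha receptor gene Pdgfra (ENSMUSG00000029231.15, chromosome 5, 75152292 to 75198215, plus strand), known from fibroblasts and their precursors, was the least abundant member. It had 20.2, 29.6 and 26.5 CPM in KO replicates 1, 2 and 3, against 10.5, 21.5 and 12.3 CPM in WT replicates 1, 2 and 3. The groups overlapped, because KO replicate 1 lay below WT replicate 2. The means were 25.5 CPM ± 4.79 in KO and 14.8 CPM ± 5.90 in WT (SD, n = 3 each), a log2 fold change of 0.79 (SE 0.31, interval 0.037 to 1.53, edgeR adjusted p = 0.57). It lay between 0.59 without WT replicate 1 and 1.16 without WT replicate 2. The next coding gene downstream, the receptor tyrosine kinase gene Kit, is 376.7 kb away and had a log2 fold change of -1.54 with an unadjusted p of 0.24. Kit averaged 72.4 CPM ± 76.7 in KO and 209.6 CPM ± 259 in WT (SD, n = 3 each), so its libraries varied by more than its mean.

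The ligand gene Pdgfb (ENSMUSG00000000489.7, chromosome 15, 79995874 to 80014977, minus strand) encodes the ligand of both receptors, which endothelium uses to recruit pericytes. It had 277, 194 and 333 CPM in KO replicates 1, 2 and 3, against 563, 321 and 354 CPM in WT replicates 1, 2 and 3. WT replicate 1 was the highest, and KO replicate 3 lay above WT replicate 2, so the groups overlapped. The means were 268 CPM ± 70.3 in KO and 413 CPM ± 131 in WT (SD, n = 3 each), a log2 fold change of -0.62 (SE 0.29, interval -1.33 to 0.082, edgeR adjusted p = 0.57). Without WT replicate 1 it was -0.33. No member had all KO libraries below all WT libraries, where 9.05% of all genes did.

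Pdgfa (ENSMUSG00000025856.15, chromosome 5, 138976014 to 138997370, minus strand) encodes a ligand of the alpha receptor that epithelium often makes. It had 85.0, 93.0 and 62.6 CPM in KO replicates 1, 2 and 3, against 150, 74.2 and 78.1 CPM in WT replicates 1, 2 and 3. The WT libraries other than replicate 1, at 74.2 and 78.1 CPM, lay inside the KO range of 62.6 to 93.0 CPM. The edgeR fit gave a log2 fold change of -0.33 (SE 0.31, interval -1.10 to 0.44, adjusted p = 0.68), and it turned to 0.076 without WT replicate 1. The antisense gene 6330403L08Rik overlaps Pdgfa and is in the table, with 13.8 CPM ± 2.34 in KO and 22.8 CPM ± 14.7 in WT (SD, n = 3 each). The labels give no strand rule for the counting, so reads from any exon bases that this pair shares could not be told apart. Only the overlap of the gene spans was found, and that of their exons was not measured.

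Pdgfc (ENSMUSG00000028019.9, chromosome 3, 81036416 to 81214040, plus strand) encodes a ligand of the alpha receptor that is secreted in a latent form and released by proteolysis. It varied least among the members, with a highest library 1.59 times the lowest, against 5.16 times for Pdgfrb. It had 60.0, 72.0 and 54.1 CPM in KO replicates 1, 2 and 3, against 45.2, 59.1 and 56.5 CPM in WT replicates 1, 2 and 3. The groups overlapped, and the log2 fold change was 0.21 (SE 0.15, interval -0.15 to 0.57, edgeR adjusted p = 0.60). It was 0.091 without KO replicate 2 and 0.10 without WT replicate 1. Of the words of 31 bases in the longest Pdgfc transcript, 3.38% occur in transcripts of other genes, the highest share among the members.

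**Figure D2:**
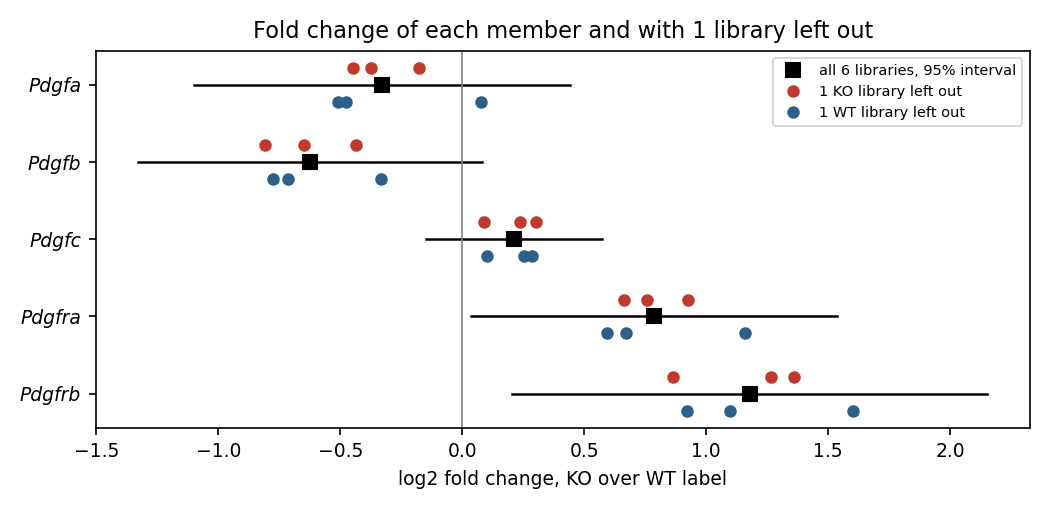
Log2 fold change of each member, KO over WT label (squares, with the 95% interval of the edgeR fit), and the same with 1 library left out (points above the line for KO libraries, below for WT libraries). The receptors stay above 0 in all of these fits, Pdgfb stays below 0, and Pdgfa crosses 0 without WT replicate 1.

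Levels of different genes were compared per kilobase of merged annotated exons. In KO libraries Pdgfb stood at 64.4 ± 16.9 CPM per kilobase, Pdgfrb at 36.6 ± 12.7, Pdgfa at 25.7 ± 5.04, Pdgfc at 12.2 ± 1.79 and Pdgfra at 2.54 ± 0.478 (SD, n = 3). In WT libraries the order was Pdgfb at 99.2 ± 31.5 CPM per kilobase, Pdgfa at 32.3 ± 13.7, Pdgfrb at 16.2 ± 7.45, Pdgfc at 10.5 ± 1.45 and Pdgfra at 1.47 ± 0.589 (SD, n = 3). Neighbours in the order overlapped within 1 SD for Pdgfb and Pdgfrb and for Pdgfrb and Pdgfa in KO, and for Pdgfa and Pdgfrb and for Pdgfrb and Pdgfc in WT. Divided by the longest annotated transcript instead, Pdgfa (38.9) and Pdgfrb (37.0) changed places in KO. Pdgfra stood last in both groups under either length.

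Pdgfrb made up nearly all of the receptor transcript per kilobase, from 90.4% to 94.5% across the 6 libraries, and its share did not separate the groups. With the longest transcript as length the range was 86.6% to 92.2%. Pdgfb made up 63.1%, 51.4% and 72.3% of the 3 ligands in KO replicates 1, 2 and 3, against 70.4%, 68.6% and 70.2% in WT replicates 1, 2 and 3. The WT shares lay close together, and KO replicate 2 had the lowest share. Pdgfc made up 11.1%, 15.6% and 9.60% in KO replicates 1, 2 and 3, against 4.62%, 10.3% and 9.15% in WT replicates 1, 2 and 3.

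**Figure D3:**
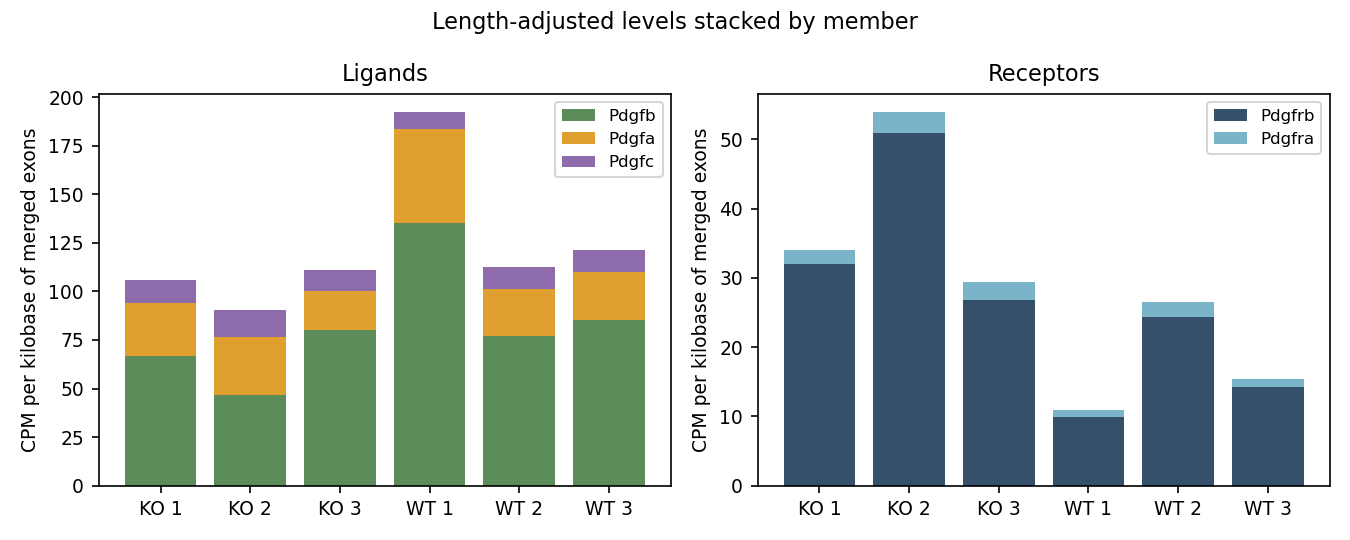
CPM per kilobase of merged exons in each library, stacked over the ligands (left) and the receptors (right), KO libraries before WT libraries. WT replicate 1 has the tallest ligand bar, 192, and the shortest receptor bar, 10.9; KO replicate 2 has the shortest ligand bar, 90.5, and the tallest receptor bar, 53.9.

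The balance of Pdgfb to its receptor Pdgfrb, as a ratio of levels per kilobase, was 2.08, 0.913 and 2.99 in KO replicates 1, 2 and 3, against 13.7, 3.17 and 5.98 in WT replicates 1, 2 and 3. All KO ratios were below all WT ratios, and KO replicate 3 was close to WT replicate 2. The ratio joins a gene lower and a gene higher with the KO label in these same libraries. Among single genes, 9.05% had all KO libraries below all WT libraries, and the share among gene pairs was not computed. The ratio of Pdgfa to Pdgfra was 13.5, 10.1 and 7.58 in KO replicates 1, 2 and 3, against 45.9, 11.1 and 20.4 in WT replicates 1, 2 and 3, and the groups overlapped. The ratio of Pdgfc to Pdgfra was 5.84, 4.79 and 4.02 in KO replicates 1, 2 and 3, against 8.47, 5.41 and 9.06 in WT replicates 1, 2 and 3, and the groups overlapped there too. These ratios are descriptions and were not tested.

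Most listed markers of the cells that carry PDGF receptors stood on the same side as the receptors. In bulk RNA, fewer cells of a type and less RNA per cell cannot be told apart. Of 12 listed pericyte and smooth muscle markers (Pdgfrb not included), 10 had a log2 fold change above 0, with a median of 0.82, against -0.0024 over all genes. Their summed level was 1212 to 2295 CPM in KO libraries and 587 to 1423 CPM in WT libraries. None passed the edgeR test, and 4 had an unadjusted p under 0.05, all higher, where 3.7% of all genes were. These were Rgs5, a regulator of G protein signalling in pericytes (log2 fold change 2.71), Abcc9, a potassium channel subunit (1.79), Des, desmin (1.47), and Myh11, smooth muscle myosin (1.69). DESeq2 called 2, Rgs5 and Abcc9, where it called 0.583% of all genes higher. The 2 markers below 0 were Notch3 (-0.29, edgeR unadjusted p = 0.055) and Mcam (-0.010). Without WT replicate 1 the median was 0.48 with 11 of 12 above 0, and without WT replicate 2 it was 1.29. The markers Kcnj8, Higd1b, Tagln and Vtn have no row in the table and were not analysed here. Of 14 fibroblast markers (Pdgfra not included), 13 lay above 0 with a median of 0.78. In this list edgeR and DESeq2 called 0, and 1 was higher at an unadjusted p under 0.05, where 3.7% of all genes were. Their summed level was 11603 to 19743 CPM in KO libraries and 12608 to 17023 CPM in WT libraries, which overlapped. Fn1, fibronectin, made up a large part of these sums, with 11990, 8066 and 4154 CPM in KO replicates 1, 2 and 3, against 13804, 9361 and 8124 CPM in WT replicates 1, 2 and 3, and was the marker below 0 (-0.37). Without Fn1, a sum added after seeing the data, the level was 6750 to 11677 CPM in KO libraries and 3219 to 7653 CPM in WT libraries, which still overlapped. Postn, periostin, averaged 2520 CPM ± 787 in KO and 1159 CPM ± 460 in WT (SD, n = 3 each), with a log2 fold change of 1.12. The collagen genes Col5a1, Col6a2 and Col6a1 had 0.91, 1.05 and 1.02. The fibroblast median was 0.48 without WT replicate 1, 1.21 without WT replicate 2 and 0.44 without KO replicate 2. The part of these cell types in the receptor levels was not tested.

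Set against either of these 2 lists in the same library, both receptors differed less between the groups than they did by themselves. Log2 CPM of Pdgfrb minus the mean of the pericyte and smooth muscle list was 1.87, 1.98 and 1.59 in KO replicates 1, 2 and 3, against 1.79, 1.76 and 1.54 in WT replicates 1, 2 and 3. These groups overlapped, and their means differed by 0.12, where Pdgfrb itself differed by 1.22 on the same scale. Minus the fibroblast list, Pdgfrb was -0.098, -0.081 and -0.40 in KO replicates 1, 2 and 3, against -0.74, -0.75 and -0.56 in WT replicates 1, 2 and 3. All KO values were above all WT values here, with means differing by 0.49. By themselves 8.39% of all genes separated in this way, and the share of genes that do so against this list was not computed. Pdgfra minus the fibroblast list was -3.21, -3.31 and -2.86 in KO replicates 1, 2 and 3, against -3.10, -3.38 and -3.22 in WT replicates 1, 2 and 3. The groups overlapped and differed by 0.10, where Pdgfra itself differed by 0.84. Minus the pericyte and smooth muscle list, Pdgfra averaged -1.12 ± 0.22 in KO and -0.85 ± 0.28 in WT (SD, n = 3 each), a difference of -0.27. Minus the epithelial list, the difference was 1.74 for Pdgfrb and 1.36 for Pdgfra, larger than for the receptors themselves. These differences are descriptions and were not tested.

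**Figure D4:**
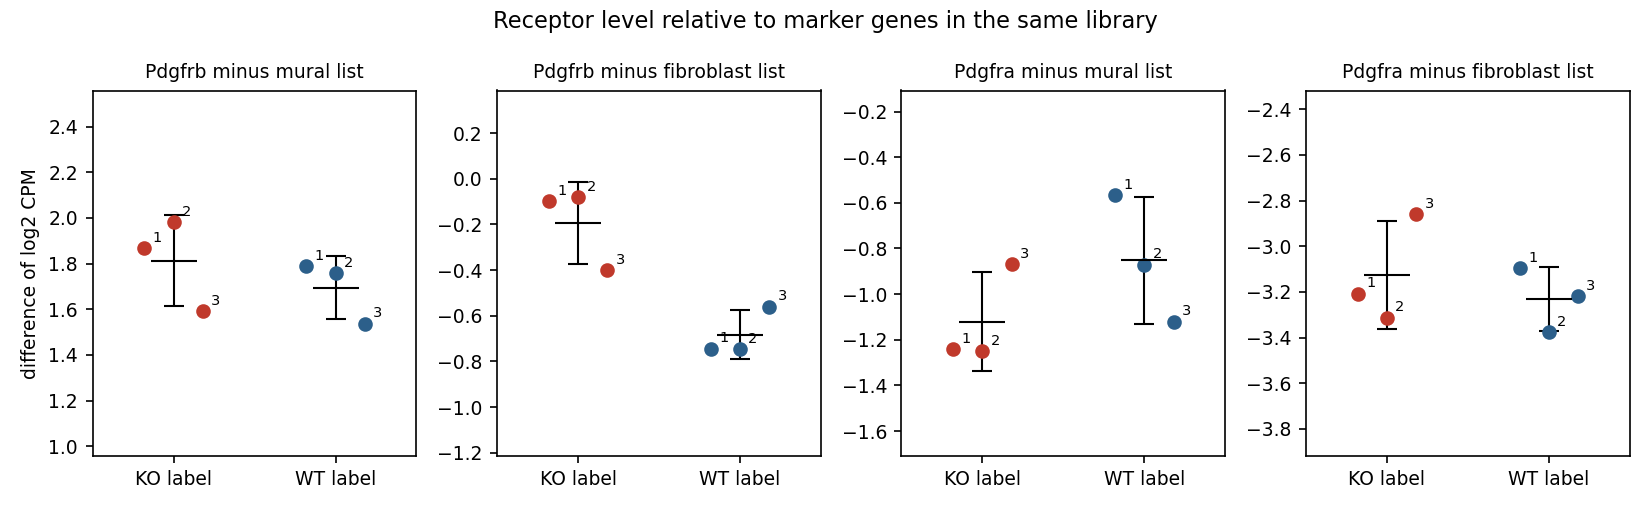
Log2 CPM of each receptor minus the mean log2 CPM of a marker list in the same library; each panel spans 1.6 log2 units, points are libraries with their replicate number, bars the group mean and SD (n = 3 each). The groups separate for Pdgfrb against the fibroblast list and overlap in the other panels.

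Other cell types were also followed through their markers. Of 15 endothelial markers, 3 were listed, Esam, Flt1 and Eng, all above 0 (log2 fold changes 1.84, 1.39 and 1.06), with summed levels of 75.7 to 219 CPM in KO libraries and 29.0 to 73.9 CPM in WT libraries. In this list edgeR called 0 and DESeq2 1, Esam, where DESeq2 called 0.583% of all genes higher. At an unadjusted p under 0.05, 2 were higher, where 3.7% of all genes were. The defining endothelial genes Pecam1, Cdh5 and Tek have no row in the table and were not analysed here. Of 13 macrophage markers, 12 lay above 0 with a median of 0.86; edgeR and DESeq2 called 0, and 6 had an unadjusted p under 0.05, among them Mpeg1, Itgam, Lyz2 and Ctss with log2 fold changes of 0.86 to 0.97. The count of 6 is read against the 3.7% of all genes that were higher at that threshold. It was 0 without KO replicate 1 or without WT replicate 3, 1 without KO replicate 2 and 2 without WT replicate 1. It was 6 without WT replicate 2, 8 with DESeq2 or the replicate block, and 9 without KO replicate 3. With the block, and without KO replicate 3, 1 marker was lower at that threshold. The summed level of the macrophage markers was 1227 to 1424 CPM in KO libraries and 850 to 1022 CPM in WT libraries. All 13 epithelial markers lay below 0, with a median of -0.48; edgeR called 0 and DESeq2 1, Krt7, and 8 had an unadjusted p under 0.05, where 4.17% of all genes were lower at that threshold. That count was 4 without KO replicate 2, 5 without KO replicate 1, 5 without WT replicate 2 and 5 with the replicate block. The smallest unadjusted p-values were those of the keratins Krt7 and Krt19 (-0.57 and -0.51) and the claudins Cldn3 and Cldn4 (-0.76 and -1.11). Of 9 basal and myoepithelial markers, 6 lay above 0 with a median of 0.43. Mylk, a kinase gene of contraction, had a log2 fold change of 1.73. Of this list edgeR called 0 and DESeq2 called Mylk. Mylk and Myh11 were higher at an unadjusted p under 0.05, where 3.7% of all genes were. Myh11, Cnn1 and Acta2 also stand in the pericyte and smooth muscle list, while the basal keratins Krt14, Krt5 and Krt17 had -0.51, -0.16 and -0.17. The median was 0.095 without KO replicate 3, 0.13 without WT replicate 1, and 0.77 without WT replicate 2 or without WT replicate 3. Fat cell, glial and platelet lists had 2 listed genes each, with medians of 2.68, -0.39 and 0.43, and 0 of 11 lymphocyte markers were listed. Fabp4 and Lpl, Sox10 and Mbp, and Itgb3 and Pf4 were the genes behind those medians. Fabp4, whose product carries fatty acids, averaged 50.6 CPM ± 25.9 in KO and 3.14 CPM ± 0.982 in WT (SD, n = 3 each), with a log2 fold change of 4.005; edgeR did not call it (adjusted p = 0.29) and DESeq2 did (adjusted p = 2.86e-16). The platelet median was 0.15 without WT replicate 1 and 0.86 without WT replicate 2. The part of these cell types in the ligand levels was not tested.

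Genes that process or bind PDGFs outside the cell, listed together with Pdgfd and Pdgfrl, stood mostly higher with the KO label. Of 14 listed, 11 had a log2 fold change above 0, where 49.4% of all genes did, and 3 below. The median was 0.34, and edgeR and DESeq2 called 0. At an unadjusted p under 0.05, 2 were higher, Pcsk5 and Pdgfd, where 3.7% of all genes were. Pcsk5, a proprotein convertase, averaged 82.7 CPM ± 19.9 in KO and 54.0 CPM ± 7.72 in WT (SD, n = 3 each), with a log2 fold change of 0.61 and an unadjusted p of 0.021. All its KO libraries were above all its WT libraries, as for 2 of the 14 listed genes and 8.39% of all genes. In the list 1 gene had all KO libraries below all WT libraries, where 9.05% of all genes did. Pdgfd, the further ligand gene of the family, which acts on the beta receptor, had 18.1, 21.1 and 15.9 CPM in KO replicates 1, 2 and 3, against 12.7, 14.8 and 13.9 CPM in WT replicates 1, 2 and 3. Its groups did not overlap and the edgeR fit gave a log2 fold change of 0.41 (SE 0.14, adjusted p = 0.57). Plat, the protease that activates PDGF-C, had 0.52, and Pdgfrl, which encodes a receptor-like protein without a kinase domain, had 0.51. Pcsk6, another proprotein convertase, had -1.02 with an unadjusted p of 0.11, averaging 27.6 CPM ± 12.7 in KO and 55.9 CPM ± 35.6 in WT (SD, n = 3 each). Furin, which cleaves PDGF precursors, had -0.030, averaging 303 CPM in KO and 309 CPM in WT. Without KO replicate 2, 7 of the 14 lay above 0 and the median of the list was 0.14. Without WT replicate 1, 9 lay above 0 and 5 below. The count at an unadjusted p under 0.05 was 0 without WT replicate 1, 1 without KO replicate 2 and 4 without WT replicate 2.

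Enzymes and adapters that act just below the receptors had a median log2 fold change close to 0. All 37 in the list were present, 12 above 0 and 25 below, with a median of -0.082, and edgeR and DESeq2 called 0. At an unadjusted p under 0.05 there were 3, all lower, where 4.17% of all genes were lower. This was 0 without KO replicate 2 and 1 without KO replicate 1, and without KO replicate 3 it was 4 lower and 2 higher. The median was -0.045 without WT replicate 1. These were Slc9a3r1, a scaffold that binds PDGF receptors (-0.80, SE 0.26), the kinase gene Akt1 (-0.25, SE 0.083) and Pik3cb, a catalytic subunit of phosphoinositide 3-kinase (-0.29, SE 0.12). Akt1 averaged 269 CPM ± 16.7 in KO and 320 CPM ± 16.7 in WT (SD, n = 3 each). Of 14 listed genes that limit receptor signalling, 10 lay above 0, with a median of 0.12. In this list edgeR and DESeq2 called 0, and 1 was lower at an unadjusted p under 0.05, where 4.17% of all genes were. This was Cblc, a ubiquitin ligase gene of epithelial cells, which averaged 20.7 CPM ± 2.25 in KO and 30.9 CPM ± 5.12 in WT (SD, n = 3 each), a log2 fold change of -0.58 with an unadjusted p of 0.0095. The adapter gene Sh2b3 and the phosphatase gene Acp1, whose product dephosphorylates the beta receptor, had 0.20 and 0.16.

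Of 10 listed relatives of the PDGFs and their receptors, 7 lay above 0, with a median of 0.24. In this list edgeR and DESeq2 called 0, and 1 was higher at an unadjusted p under 0.05, where 3.7% of all genes were. This was Flt1, a VEGF receptor gene, which averaged 66.1 CPM ± 33.8 in KO and 25.3 CPM ± 10.1 in WT (SD, n = 3 each), with a log2 fold change of 1.39 and an unadjusted p of 0.029. Vegfc, a lymphatic growth factor gene, had -0.72, and Vegfa, the main angiogenic factor gene, had 0.27. The median was 0.082 without KO replicate 2 and 0.062 without WT replicate 1. Kdr, which lies in the same gene cluster as Pdgfra and Kit, has no row in the table and was not analysed here.

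**Figure D5:**
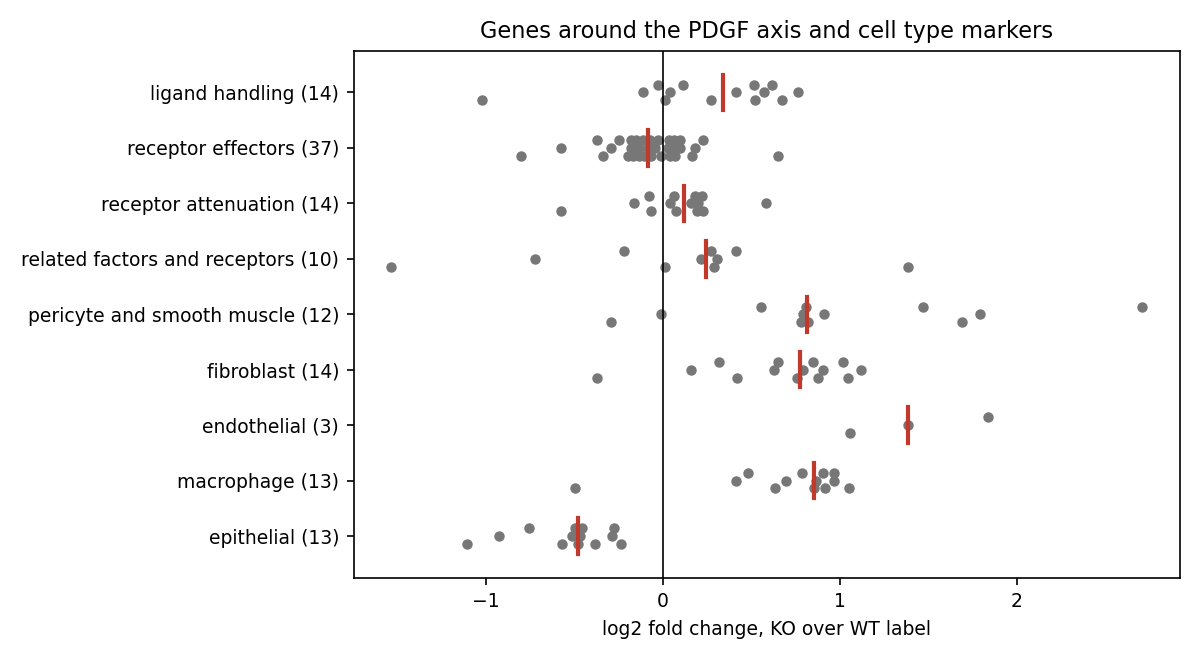
Log2 fold change, KO over WT label, of the genes in 9 lists (grey points, 1 per gene; the number of listed genes is in brackets), with the median of each list as a red bar. The pericyte and smooth muscle, fibroblast and macrophage medians lie between 0.78 and 0.86, that of the receptor effectors at -0.082 and that of the epithelial markers at -0.48.

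The genes most like each member were those with the smallest root mean square difference of log2 CPM over the 6 libraries, after each gene's mean was subtracted, among 10542 named genes. For Pdgfrb they were Pde3a (0.13), Fgf7 (0.13), Zeb2 (0.14) and Naalad2 (0.14), with log2 fold changes between 0.95 and 1.43. For Pdgfra they were Fcgrt (0.11), Colec12 (0.14), Gpr35 (0.14) and Mmp19 (0.14), with log2 fold changes between 0.63 and 0.87. For Pdgfb they included Nup210 (0.091), Epn3 (0.097) and Ccpg1os (0.097), with log2 fold changes between -0.74 and -0.65. For Pdgfa they were Dtx2 (0.090), Fyn (0.091), Gna12 (0.096) and Tmem104 (0.098), and for Pdgfc they were Oma1 (0.021), Tmem38a (0.028), Mpg (0.037) and Ptk2 (0.040). Within a difference of 0.2 there were 26 genes for Pdgfra, 30 for Pdgfrb, 132 for Pdgfb, 149 for Pdgfa and 3187 for Pdgfc. Pdgfc, which varied little, therefore resembled many genes. All of these genes share the same libraries and their scaling. They were picked by their levels in these libraries, so fold changes close to that of the member follow from the selection.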

How the data were processed

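Messenger RNA of 3 libraries labelled Nr4a1-/- and 3 labelled wild type was compared. The authors deposited raw counts per gene symbol, 1 column per library, without normalization. CASAVA 1.8, HISAT2, featureCounts and build GRCm38 (mm10) were used, per the submitters' processing notes, which give no annotation, strand rule or low-count filter here. Each gene in the table reached at least 133 counts in some library. Whole-table fits used edgeR 4.0.16 in R 4.3.3 (filterByExpr, TMM, robust quasi-likelihood F test, group as the only term, Benjamini-Hochberg adjustment, threshold 0.05). The SE is the fold change over the root of F. DESeq2 1.42.0 and limma-voom (limma 3.58.1) were alternatives. Log2 CPM used a prior count of 2. Depth was 19569173 to 24188875 counts. The fits were run on simulated counts with planted fold changes, where only the slope and sign of the estimates were required to match. The share of planted changes that each tool called is not reported here. Exon lengths and positions came from GENCODE M21 (GRCm38), promoters from RefSeq (GRCm38.p6).

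Members, lists, motifs and tests were chosen with earlier results of these data known. Named genes were the members, Pdgfd, Pdgfrl, Nr4a1, genes neighbouring the receptor genes, up to 4 of each list by smallest unadjusted p, and the 4 genes most like each member. 6330403L08Rik, Furin, Pcsk6, Fn1, Notch3, Mcam, Krt5, Krt17 and markers without a row were picked with their values in view. A few genes that this rule names are not reported here.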

Additional observations from a re-analysis of the deposited data

How the results depend on the processing

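Scaling by DESeq2 size factors or library size alone, a fit without the robust step, DESeq2 and limma-voom changed no direction and no call of the 5 members. The filter removed no gene of the 10995, so a fit without it repeated the main fit and checked nothing. DESeq2 called 64 genes higher and 39 lower over the whole table, where edgeR called 0 and 0 (866 genes at an unadjusted p under 0.05) and limma-voom 0. With 1 library left out, edgeR called 0 to 1 higher and 0 to 1 lower, the calls arising without WT replicate 2. The log2 fold change with 1 library left out ranged from 0.86 to 1.60 for Pdgfrb, 0.59 to 1.16 for Pdgfra, -0.81 to -0.33 for Pdgfb, 0.091 to 0.30 for Pdgfc, -0.51 to 0.076 for Pdgfa and 0.31 to 0.88 for Nr4a1. Only the last value of Pdgfa, without WT replicate 1, was reversed, and the cause was not tested. Library size alone put 54.8% of all genes above 0, against 49.4% with TMM. Same-numbered libraries had correlations of -0.11, 0.35 and -0.25 of their deviations from the group means. These do not settle whether the replicate numbers pair the libraries. With the replicate block in edgeR the log2 fold change of Pdgfrb was 1.22 (SE 0.19, unadjusted p = 0.0026, adjusted p = 0.48). That of Pdgfra was 0.84 (SE 0.17, unadjusted p = 0.0070, adjusted p = 0.55), and 0 genes were called. That of Pdgfb was -0.61 (SE 0.21, unadjusted p = 0.043). The SE of Nr4a1 rose from 0.32 to 0.37. Fibroblast markers higher at an unadjusted p under 0.05 were 9 of 14 with the block, where 4.38% of all genes were, and 1 without it. The length used for levels, chosen after seeing the data, changed the order of Pdgfa and Pdgfrb in KO.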
